A study of Mus musculus with 18 samples.

Results

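The genes described here encode the ligands and receptors on antigen-presenting cells that set the strength of T cell activation: *Cd80*, *Cd86*, *Icosl*, *Cd274*, *Pdcd1lg2*, *Cd276* and *Vsir* of the B7 family, and *Cd40*. They were found by matching the Ensembl identifiers of the count table to these 8 symbols, so that 8 of 55385 listed genes were followed across 6 groups. The study asked how blocking choline metabolism affects macrophage polarization. All 18 libraries came from bone marrow-derived macrophages (BMDM) of female C57BL/6J mice aged 12 weeks, grown from marrow in L929-conditioned medium as a source of CSF-1. Cells received vehicle (Veh, 0.1% DMSO), 250 µM hemicholinium-3 (HC3), which blocks choline uptake, or 5 µM RSM-932a (RSM), an inhibitor of choline kinase, for 24 h, and then spent a further 24 h either without cytokine (M[0]) or with IL-4 at 20 ng/mL (M[IL-4]). Each of the 6 combinations has 3 libraries. The labels speak of individual mice and give replicate numbers, but do not say which number belongs to which animal, so the spread between libraries may be partly technical.

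A T cell that recognizes antigen needs a further signal from the presenting cell. CD80 and CD86 give it through CD28 and withdraw it through CTLA-4, ICOSL engages ICOS, and CD40 is the receptor through which T cells carrying CD40 ligand license macrophages and dendritic cells. PD-L1, encoded by *Cd274*, and PD-L2, encoded by *Pdcd1lg2*, bind PD-1 and restrain T cells. B7-H3, encoded by *Cd276*, and VISTA, encoded by *Vsir*, are further members of the family with mostly inhibitory roles, and VISTA is abundant on myeloid cells. PD-L2 is a classical marker of macrophages polarized with IL-4.

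Libraries held 17457796 to 19522255 counts, so that 3 counts corresponded to 0.153 to 0.176 CPM (counts scaled to library size and TMM factor). Macrophage markers were present in every library, but the summed level of 10 of them moved with treatment (8, 6, 4 and 3 of the 10 were called lower with HC3 and RSM in M[0] and with HC3 and RSM in M[IL-4], against 6.11%, 6.51%, 5.53% and 6.00% of all tested genes), from 23542.8-24465.1 CPM in Veh M[0] to 9016.2-10030.9 in HC3 M[0] and 16180.4-17611.5 in RSM M[0], and from 14661.8-15407.6 in Veh M[IL-4] to 7935.5-9100.2 and 11319.8-13855.4 under HC3 and RSM. The sum of 10 stromal markers moved the other way in M[0] (673-1152.1 CPM in Veh, 1676.5-2237.2 in HC3, 1331.6-1912.9 in RSM), and in M[IL-4] it was higher with each inhibitor in 3 of 3 same-numbered pairs, although the ranges overlapped (380.0-874, 783-1430.7 and 719-1359.3). Of these markers, *Col3a1* was called higher in all 4 inhibitor comparisons (log2 1.04 to 1.45), *Dcn* lower in both with RSM (-1.51 and -1.55), and *Lum* and *Thy1* stayed at no more than 8 counts. The sum of 12 dendritic cell markers was 43.8-72.2 CPM in Veh M[0], 142-204 in HC3 M[0], 70.9-113 in RSM M[0], 89.3-115 in Veh M[IL-4], 132-187 in HC3 M[IL-4] and 149.6-207 in RSM M[IL-4], with most counts from *Fscn1*, *Clec10a* and *Ly75*. Called higher were *Fscn1* with HC3 (log2 1.88 in M[0] and 1.37 in M[IL-4]), *Ly75* with HC3 in M[0] (1.14) and *Clec10a* with RSM in M[IL-4] (1.66). *Batf3*, at 23.6 CPM in Veh M[IL-4], moved against the sum and was called lower in all 4 inhibitor comparisons (log2 -1.12 to -2.96), as was *Ccl17* with RSM in M[IL-4] (-3.93), and *Flt3*, *Xcr1* and *Clec9a* never exceeded 10 counts. The sum of 10 B cell markers was 26.8-34.2 CPM in Veh M[0] and 6.52-17.9 in the other groups, carried by *Ighm* and *Cd22*, and that of 9 neutrophil markers did not exceed 2.04 CPM. The neutrophil markers *S100a9* and *Elane* had 0 counts in all libraries. Not all macrophage markers followed their sum. The mean of *Lyz2* was 11633.1 CPM in Veh M[0] and 11660.2 in RSM M[0]. In M[IL-4] it was 4530.6 CPM with Veh and 5903.0 with RSM. *Fcgr1* was higher with each inhibitor in M[IL-4], at 51.4 CPM with Veh and 81.1 with both HC3 and RSM. Mitochondrial transcripts took a median of 1.77% of the total with Veh, 3.39% with HC3 and 0.794% with RSM among M[0] libraries, and 1.86%, 2.51% and 0.718% among M[IL-4] libraries. The part of these shifts in the results below was not tested, and in bulk RNA fewer cells of a type and less RNA per cell cannot be told apart.

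All 8 genes passed the count filter, *Pdcd1lg2* only through its M[IL-4] libraries. A gene was called where its false discovery rate (FDR, edgeR quasi-likelihood test with Benjamini-Hochberg adjustment) over all 14979 tested genes was under 0.05 and it differed by at least 1 on the log2 scale, and "passed the FDR" is used where only the first held. In M[0], HC3 called 3 of 8 genes and 5 passed the FDR, against 12.0% and 44.1% of all tested genes. RSM called 3 and passed 4, against 11.6% and 41.1%. In M[IL-4], HC3 called 2 and passed 4, against 10.3% and 38.8%, and RSM called 4 and passed 7, against 11.0% and 38.6%. IL-4 called 5 and passed 7 of 8 in Veh cells, against 6.66% and 31.0% of all genes. It called 2 and passed 3 under HC3, against 3.97% and 14.7%, and called 3 and passed 6 under RSM, against 4.26% and 15.5%. These IL-4 counts include *Pdcd1lg2*, which could not pass the filter without differing. The other 7 genes gave 4, 1 and 2 calls in Veh, HC3 and RSM cells, with 6, 2 and 5 past the FDR. *Pdcd1lg2* has no usable level in M[0] and was left aside there. The median log2 difference of the other 7 genes among M[0] cells was 0.39 for HC3 and 0.05 for RSM. Over all tested genes it was 0.023 and 0.0053. Among M[IL-4] cells, where *Pdcd1lg2* was well counted, the median of all 8 genes was 0.16 for HC3 and 0.41 for RSM. Over all tested genes it was 0.0063 and 0.019. Without *Pdcd1lg2* the M[IL-4] medians were 0.37 and 0.85.

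**Figure D1:**
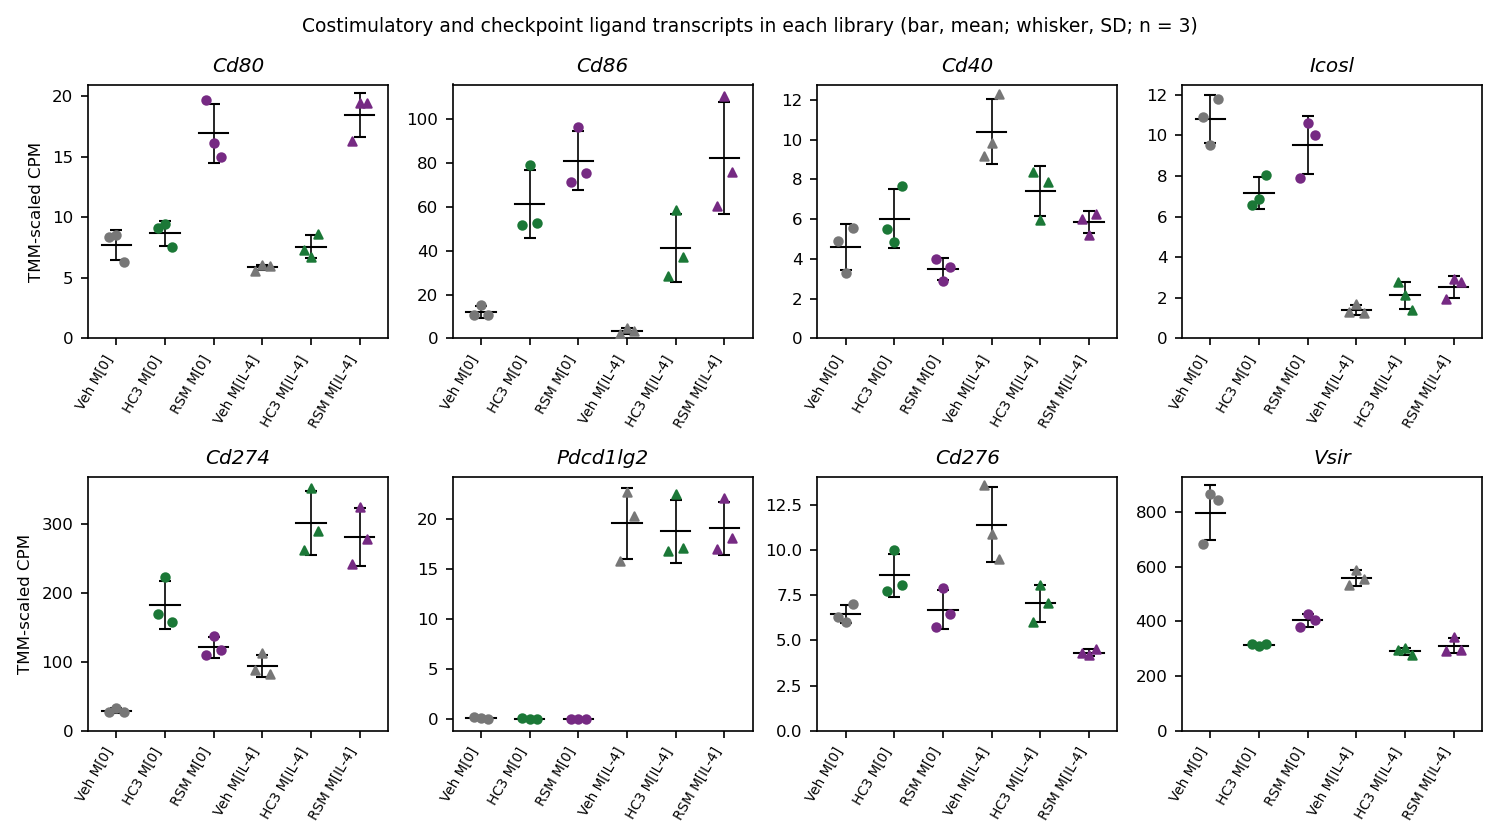
TMM-scaled CPM of the 8 genes in every library (points; circles M[0], triangles M[IL-4]; grey Veh, green HC3, purple RSM), with the mean (bar) and SD (whisker) of 3 libraries; each panel has its own linear axis. *Cd86* and *Cd274* lie higher in every inhibitor library than in the Veh libraries of the same polarization, *Vsir* lies lower, and *Pdcd1lg2* is present only in M[IL-4] libraries beyond 3 counts.

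*Cd86* and *Cd80*, the ligands of CD28 and CTLA-4, were affected differently by the inhibitors. *Cd86* (chr16:36603869-36666081, minus strand, GRCm38) rose with both, and *Cd80* (chr16:38455561-38496335, plus strand) rose with RSM. *Cd86* stood at 10.5, 15.1 and 10.6 CPM in the Veh M[0] libraries, 51.7, 79.1 and 52.7 in HC3 M[0] and 71.2, 96.3 and 75.4 in RSM M[0]. In M[IL-4] it was 2.15, 4.64 and 3.47 CPM in Veh, 28.3, 58.3 and 37.3 in HC3 and 60.2, 110.3 and 76 in RSM. No inhibitor library overlapped a Veh library of the same polarization, and the Veh M[IL-4] libraries were the lowest of all. HC3 raised *Cd86* by 2.35 ± 0.279 on the log2 scale in M[0] (SE, FDR = 1.5e-06) and 3.60 ± 0.33 in M[IL-4] (FDR = 6.47e-08), which is 5.08-fold and 12.1-fold. RSM raised it by 2.75 ± 0.28 in M[0] (FDR = 2.17e-07) and 4.59 ± 0.328 in M[IL-4] (FDR = 2.17e-09), or 6.72-fold and 24.1-fold.

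IL-4 lowered *Cd86* in Veh cells by 3.53-fold (log2 -1.82 ± 0.355, FDR = 0.000634), from 12.1 ± 2.63 to 3.42 ± 1.25 CPM (SD, n = 3). Under RSM the means were 81 ± 13.5 CPM in M[0] and 82.2 ± 25.6 in M[IL-4] (log2 0.02, 95% confidence interval -0.49 to 0.54), and the difference between the IL-4 responses of RSM and Veh cells was itself called (log2 1.84 ± 0.434, FDR = 0.0102). That difference did not pass the FDR without replicate 3 (1.94, FDR = 0.176). Of all tested genes, 268 passed in this interaction without replicate 3, against 1377 with none left out. Under HC3 the IL-4 response was -0.57 (interval -1.10 to -0.04, FDR = 0.152), and its difference from Veh was 1.25 ± 0.439 with an FDR of 0.101, which became 1.48e-07 with a replicate block within polarization. Libraries with replicate number 2 held the highest *Cd86* level in 6 of 6 groups, by up to 2.16 times the lowest library of the group. The same libraries held the lowest stromal and the lowest dendritic cell marker sums in 6 of 6 groups and the highest macrophage marker sum in 5 of 6. *Cd86* was called in each of the 4 inhibitor comparisons under 12 of 12 alternative settings, including those without replicate 2.

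*Cd80* was at 8.35, 8.52 and 6.29 CPM in Veh M[0], 9.1, 9.42 and 7.52 in HC3 M[0], and 19.7, 16.1 and 15 in RSM M[0]. The M[IL-4] libraries had 5.6, 6.04 and 5.94 CPM with Veh, 7.3, 6.75 and 8.65 with HC3, and 16.3, 19.4 and 19.4 with RSM. The RSM libraries stood above all others, and those of HC3 overlapped Veh in M[0]. RSM raised *Cd80* 2.2-fold in M[0] (log2 1.13 ± 0.143, FDR = 3.36e-06) and 3.14-fold in M[IL-4] (1.65 ± 0.147, FDR = 4.04e-08). For HC3 the log2 difference was 0.17 in M[0] (interval -0.14 to 0.48, FDR = 0.372) and 0.37 in M[IL-4] (0.05 to 0.69, FDR = 0.064, or 0.0183 with the block within polarization). Per kilobase of exon, which allows genes to be compared, the ratio of *Cd86* to *Cd80* was 1.59 ± 0.284 in Veh M[0] and 0.586 ± 0.195 in Veh M[IL-4] (SD, n = 3). Under HC3 it was 7.11 ± 1.37 without and 5.67 ± 2.66 with IL-4, and under RSM 4.93 ± 1.22 and 4.48 ± 1.1. *Cd80* thus exceeded *Cd86* per length in the Veh M[IL-4] group alone. The IL-4 difference of *Cd80* was -0.40 with Veh (interval -0.72 to -0.08, FDR = 0.0567), -0.20 with HC3 (-0.51 to 0.11) and 0.12 with RSM (-0.17 to 0.40). The responses differed from Veh by 0.20 under HC3 (interval -0.25 to 0.65) and by 0.51 under RSM (0.08 to 0.94, FDR = 0.139, or 0.0261 with the block within polarization).

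*Cd40* (chr2:165055627-165072948, plus strand) rose with IL-4 in Veh cells, and within M[IL-4] it was lower with RSM than with Veh. Its level was 4.92, 3.29 and 5.54 CPM in Veh M[0] and 9.15, 9.81 and 12.3 in Veh M[IL-4], without overlap, a 2.26-fold rise (log2 1.18 ± 0.208, FDR = 0.000251). In HC3 M[IL-4] it was 8.38, 5.98 and 7.88 CPM and in RSM M[IL-4] 6.01, 5.22 and 6.28, all below the lowest Veh M[IL-4] library. The RSM libraries passed the FDR against Veh (log2 -0.83 ± 0.203, FDR = 0.00293). HC3 had -0.49 (interval -0.91 to -0.07, FDR = 0.0616, or 0.00509 with the block within polarization). In M[0] the inhibitors had log2 differences of 0.39 for HC3 (interval -0.06 to 0.84, FDR = 0.151, or 0.0372 with the block) and -0.40 for RSM (-0.86 to 0.07, FDR = 0.168). The IL-4 difference was 0.30 under HC3 (interval -0.13 to 0.73, FDR = 0.39) and 0.74 under RSM (0.28 to 1.20, FDR = 0.0252). The response under HC3 differed from that of Veh by -0.88 ± 0.293 with an FDR of 0.0849, and 0.00394 with the block, and that under RSM by -0.44 (interval -1.07 to 0.20, FDR = 0.464).

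*Icosl* (chr10:78069302-78083913, plus strand) fell with IL-4 in all treatments. It was at 10.9, 9.52 and 11.8 CPM in Veh M[0] and 1.29, 1.68 and 1.23 in Veh M[IL-4], 7.66-fold lower (log2 -2.94 ± 0.224, FDR = 9.64e-09). HC3 cells went from 6.58, 6.86 and 8.05 CPM to 2.77, 2.16 and 1.42 (log2 -1.76 ± 0.214, FDR = 1e-05) and RSM cells from 7.9, 10.6 and 10 to 1.94, 2.91 and 2.77 (-1.91 ± 0.206, FDR = 1.55e-06). The M[IL-4] libraries lay below all M[0] libraries, at 22 to 54 counts each. The response was smaller with inhibitor than with Veh, by 1.18 ± 0.315 under HC3 (FDR = 0.0303) and by 1.03 ± 0.308 under RSM (FDR = 0.0418). Neither difference passed the FDR without any one of the 3 replicate numbers (0.84 to 1.38 for HC3, FDR up to 0.228, and 0.85 to 1.24 for RSM, FDR up to 0.37). In M[0], HC3 libraries were lower than Veh (log2 -0.59 ± 0.188, FDR = 0.0162) and RSM libraries overlapped it (-0.18, interval -0.57 to 0.21, FDR = 0.472). In M[IL-4], RSM was higher than Veh by 0.85 ± 0.246 (FDR = 0.00985) and HC3 by 0.59 (interval 0.06 to 1.12, FDR = 0.0722).

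**Figure D2:**
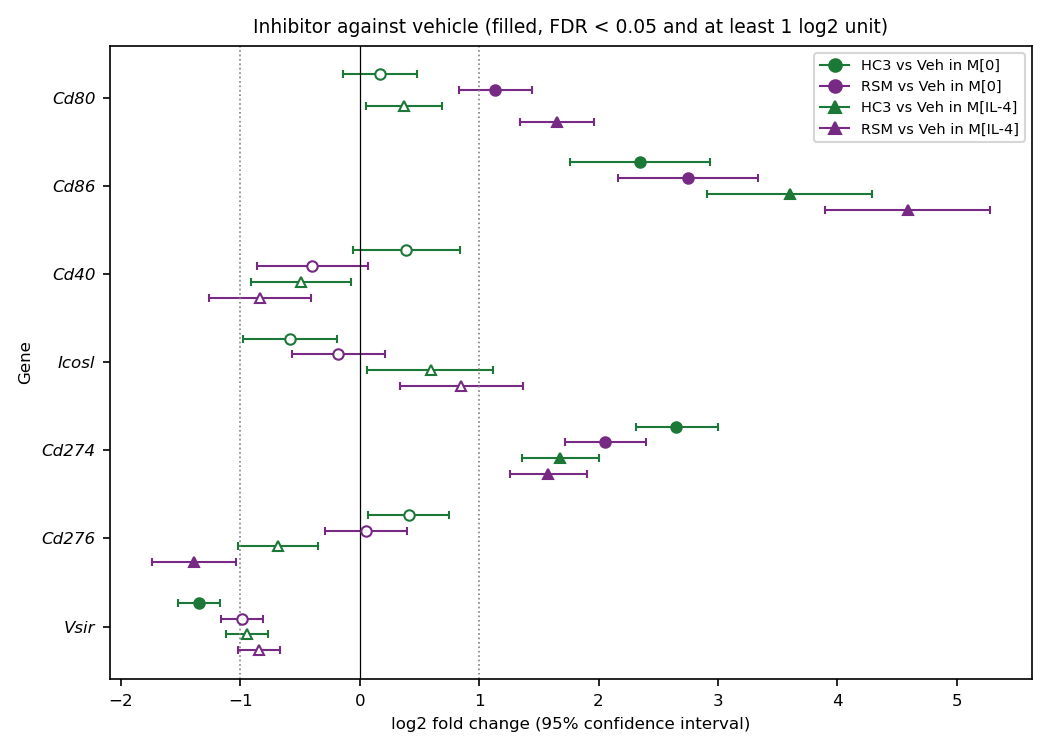
Log2 fold change of each inhibitor against Veh for 7 of the 8 genes (*Pdcd1lg2* has too few M[0] counts), with 95% confidence intervals; circles M[0], triangles M[IL-4], green HC3, purple RSM, filled where called. *Cd86* and *Cd274* are called in all 4 comparisons, *Cd80* in both with RSM, *Vsir* with HC3 in M[0], and *Cd276* with RSM in M[IL-4].

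The PD-1 ligands lie next to each other on chromosome 19 and were affected in different ways: both rose with IL-4, and *Cd274* alone rose with the inhibitors. *Cd274* (chr19:29367455-29388095, plus strand) was at 27.3, 33.7 and 26.7 CPM in Veh M[0], 169.7, 223 and 158 in HC3 M[0], and 109.7, 138 and 117 in RSM M[0]. In M[IL-4] the values were 87.7, 113 and 82.4 CPM with Veh, 263, 353 and 289.9 with HC3, and 242, 326 and 279 with RSM. Inhibitor and Veh libraries did not overlap within a polarization, and the inhibitor M[IL-4] libraries were the highest of all 18. HC3 raised *Cd274* 6.28-fold in M[0] (log2 2.65 ± 0.164, FDR = 2.18e-10) and 3.2-fold in M[IL-4] (1.68 ± 0.154, FDR = 6.27e-08). RSM raised it 4.16-fold (2.06 ± 0.162, FDR = 7.15e-09) and 2.99-fold (1.58 ± 0.153, FDR = 1.21e-07). IL-4 raised it 3.23-fold in Veh cells (1.69 ± 0.162, FDR = 1.91e-07) and 2.32-fold in RSM cells (1.22 ± 0.151, FDR = 8.7e-06). In HC3 cells the difference passed the FDR at 1.65-fold (0.72 ± 0.149, FDR = 0.00234).

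The IL-4 response of *Cd274* was smaller with HC3 than with Veh by 0.97 on the log2 scale (-0.97 ± 0.218, FDR = 0.0105, and up to 0.164 when single replicates were left out). With RSM it differed by -0.48 ± 0.219 (FDR = 0.211, or 0.00014 with the block within polarization). Replicate 2 was the highest library for *Cd274* in 6 of 6 groups, as for *Cd86*, at 1.26 to 1.41 times the lowest. *Cd274* was called in the 4 inhibitor comparisons under 12 of 12 alternative settings. Of its exons, 14.1% face *AC119228.1*, an antisense gene with 25 to 274 counts per library, and whether counting used strand is not given in the sources used here, so reads from that stretch cannot be assigned to either strand.

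*Pdcd1lg2* (chr19:29410919-29471161, plus strand) was counted 3, 1 and 0 times in the Veh M[0] libraries, 1, 0 and 0 times in HC3 M[0] and 0 times in each RSM M[0] library. In M[IL-4] it had 293, 391 and 362 counts with Veh, 297, 406 and 312 with HC3, and 334, 410 and 340 with RSM. It was thus near or at 0 in all M[0] libraries and clearly present in all M[IL-4] libraries. The ratio of M[IL-4] to M[0] was 262 in Veh cells (exact 95% binomial interval 102 to 962, from 4 counts in M[0]) and 1075.5 in HC3 cells (193 to 42522.5, from 1 count), and in RSM cells the level was at least 364-fold higher, against a floor of 3 counts over the group. These intervals cover counting error only. Among M[IL-4] libraries the groups overlapped at 19.6 ± 3.52 CPM for Veh, 18.8 ± 3.19 for HC3 and 19.1 ± 2.66 for RSM. The log2 difference from Veh was -0.059 for HC3 (interval -0.44 to 0.33, FDR = 0.831) and -0.039 for RSM (-0.42 to 0.35, FDR = 0.891). In M[0] the comparison with Veh rested on 1 against 4 counts for HC3 (FDR = 0.292) and 0 against 4 for RSM (FDR = 0.0828, or 0.0341 with the block within polarization), too few to give a fold.

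Per kilobase of exon, *Cd274* exceeded *Pdcd1lg2* 2.64 ± 0.409 times in Veh M[IL-4], 8.73 ± 0.398 times in HC3 M[IL-4] and 8.02 ± 0.314 times in RSM M[IL-4] (SD, n = 3). The 3 Veh ratios were 3.01, 2.7 and 2.2, and the lowest of the inhibitor ratios was 7.71. The balance of the PD-1 ligand transcripts thus lay further toward PD-L1 in every inhibitor library of M[IL-4] cells.

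The upstream sequences of these neighbours are shown because the genes share the response to IL-4 and not that to the inhibitors. They are from RefSeq (GRCm38.p6), which gave a start for 6 of the 8 genes. For *Pdcd1lg2* the 250 bases before the start are given (chr19:29410669-29410918, plus strand). For *Cd274* the 47 bases between its start and the neighbouring gene *Plgrkt*, which runs the other way, are given (chr19:29367391-29367437, plus strand). Capitals mark matches to the motifs named next.
Pdcd1lg2: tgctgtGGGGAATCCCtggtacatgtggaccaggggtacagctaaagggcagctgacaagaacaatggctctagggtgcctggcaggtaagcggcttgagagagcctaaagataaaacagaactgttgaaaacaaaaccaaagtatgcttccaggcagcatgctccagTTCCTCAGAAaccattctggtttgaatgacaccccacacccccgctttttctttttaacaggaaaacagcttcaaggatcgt
Cd274: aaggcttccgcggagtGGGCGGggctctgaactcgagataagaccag
The 5 motifs searched on both strands were the STAT6-type site TTCNNNNGAA, the GAS site TTCNNNGAA bound by other STAT factors, the core of the interferon-stimulated response element GAAANNGAAA, the NF-kB site, and the GC box GGGCGG. They occurred in the 250 bases before 5.85%, 7.02%, 2.98%, 7.25% and 32.7% of 32851 RefSeq starts, in that order, and none of the matches in the members overlapped another motif. *Pdcd1lg2* held a STAT6-type site at -82 to -73 and an NF-kB site at -244 to -235 from its start. The full 250 bases before *Cd274*, *Cd80*, *Icosl*, *Cd276* and *Vsir* held no STAT6-type site, and none of the 6 windows held a GAS site or the response element core. The GC box of *Cd274* lies at -31 to -26, and the windows of *Icosl*, *Cd276* and *Vsir* held GC boxes too. *Icosl* also held an NF-kB site at -111 to -102. A match is a description of letters, and its absence says only that the letters are not in this window.

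**Figure D3:**
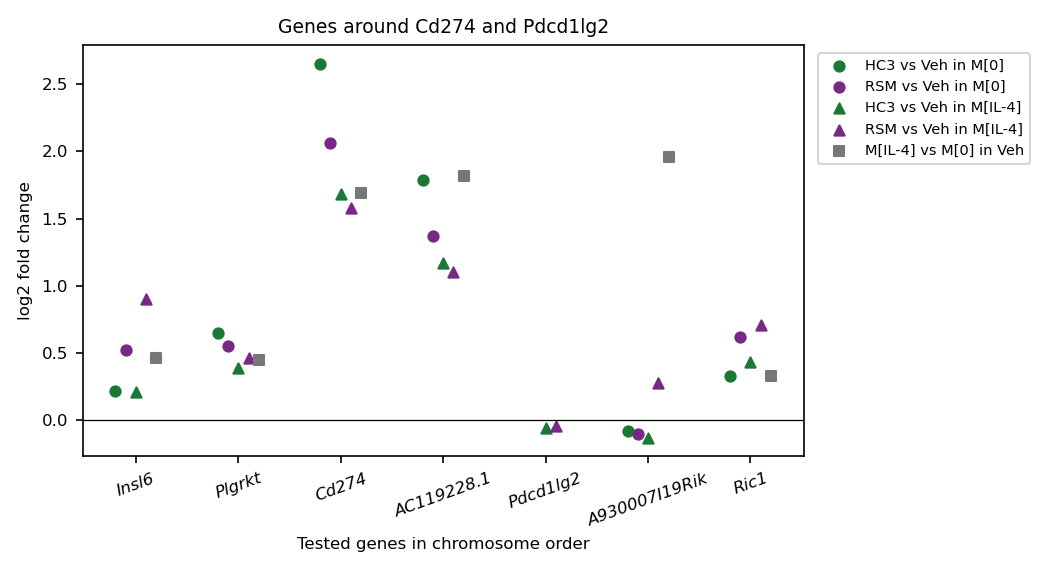
Log2 fold change of the tested genes around *Cd274* and *Pdcd1lg2*, in chromosome order, for the 4 inhibitor comparisons (circles M[0], triangles M[IL-4], green HC3, purple RSM) and for IL-4 in Veh cells (grey squares). *Pdcd1lg2* is drawn only for the M[IL-4] inhibitor comparisons, where it lies near 0, while *Cd274* and the antisense *AC119228.1* lie above 1 throughout. *AC119228.1* lies within *Cd274*, and its counts may include reads of *Cd274*.

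The tested genes on either side were measured in the same comparisons. *Insl6*, an insulin-family gene, passed the FDR with RSM (log2 0.52 in M[0], FDR = 0.0115, and 0.90 in M[IL-4], FDR = 7.25e-05) and not with HC3 (0.22 and 0.21). *Plgrkt*, a plasminogen receptor gene that begins close to *Cd274* on the other strand, was higher by 0.39 to 0.65 on the log2 scale in the 4 inhibitor comparisons and passed the FDR in each (FDR up to 0.00901). *Ric1*, beyond *Pdcd1lg2*, was higher by 0.33 to 0.71 (FDR up to 0.00349). *AC119228.1* was called in all 4, at 1.79 (HC3) and 1.37 (RSM) among M[0] cells, then 1.17 and 1.10 among M[IL-4] cells. With IL-4 in Veh cells it was at 1.82, close to the 1.69 of *Cd274*. This gene lies within *Cd274* on the other strand, so its counts may include reads of *Cd274* and are not a separate measure. *A930007I19Rik*, an antisense gene whose body overlaps the end of *Pdcd1lg2*, rose with IL-4 (1.96, FDR = 0.000702) and had inhibitor differences of -0.13 to 0.28 (FDR at least 0.543).

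*Cd276* (chr9:58524298-58555437, minus strand) was higher with IL-4 in Veh cells and not in inhibitor cells. Its level was 6.3, 6.05 and 7.04 CPM in Veh M[0] and 13.6, 10.9 and 9.52 in Veh M[IL-4], which passed the FDR at 1.75-fold (log2 0.81 ± 0.161, FDR = 0.000748). HC3 libraries had 7.76, 9.99 and 8.05 CPM without IL-4 and 6, 8.08 and 7.06 with it (log2 -0.29, interval -0.63 to 0.05, FDR = 0.276), and RSM libraries 5.76, 7.9 and 6.47 and then 4.28, 4.2 and 4.52 (-0.63 ± 0.169, FDR = 0.0147). The direction of the IL-4 difference was thus opposite in RSM and Veh cells, and both interactions were called, at -1.10 ± 0.228 for HC3 (FDR = 0.00617) and -1.44 ± 0.234 for RSM (FDR = 0.000502). The HC3 interaction did not pass without replicate 1 (-0.871, FDR = 0.0916) or without replicate 3 (-1.32, FDR = 0.105), and the RSM one was called under 12 of 12 alternatives. Against Veh in M[IL-4], *Cd276* was 2.62-fold lower with RSM (-1.39 ± 0.166, FDR = 1.78e-06) and 1.61-fold lower with HC3 (-0.69 ± 0.16, FDR = 0.00202). Without replicate 1 the HC3 difference was -0.43 and did not pass (FDR = 0.0871). In M[0] the differences were 0.41 for HC3 (FDR = 0.0481, passed in 4 of 12 alternatives) and 0.053 for RSM (interval -0.29 to 0.40, FDR = 0.83). The antisense gene *Gm10657*, which faces 11.4% of the exons, had at most 2 counts.

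*Vsir* (chr10:60346851-60372684, plus strand) was the most abundant of the 8 genes per length in Veh cells and fell with HC3 in M[0]. It stood at 682, 866 and 843 CPM in Veh M[0], 316, 309 and 317 in HC3 M[0] and 378, 425 and 405 in RSM M[0]. In M[IL-4] it was 531, 589 and 553 CPM in Veh, 295, 301 and 275 in HC3 and 293, 343 and 296 in RSM. All inhibitor libraries lay below all Veh libraries of either polarization. The fall with HC3 in M[0] was 2.54-fold (log2 -1.34 ± 0.084, FDR = 2.52e-10). The other differences passed the FDR just under the fold threshold, with RSM in M[0] at -0.98 ± 0.0833 (FDR = 1.81e-08, and -1.05 without replicate 1), HC3 in M[IL-4] at -0.94 ± 0.0835 (FDR = 4.12e-08) and RSM in M[IL-4] at -0.84 ± 0.0833 (FDR = 1.53e-07). IL-4 in Veh cells gave -0.51 ± 0.0827 (FDR = 9.37e-05), in RSM cells -0.37 ± 0.083 (FDR = 0.00345), and in HC3 cells -0.11 (interval -0.29 to 0.06, FDR = 0.424). The HC3 and Veh responses differed by 0.40 ± 0.117 (FDR = 0.0474, passed in 8 of 12 alternatives) and those of RSM and Veh by 0.14 (interval -0.10 to 0.39, FDR = 0.558). The macrophage marker sum moved with *Vsir*: it too was lower in every inhibitor library than in any Veh library of the same polarization. The single markers did not all follow this sum. With RSM in M[IL-4], 4 of the 10 passed the FDR lower and 2 higher, with a median log2 difference of -0.16. Of all tested genes 38.6% passed there in either direction.

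**Figure D4:**
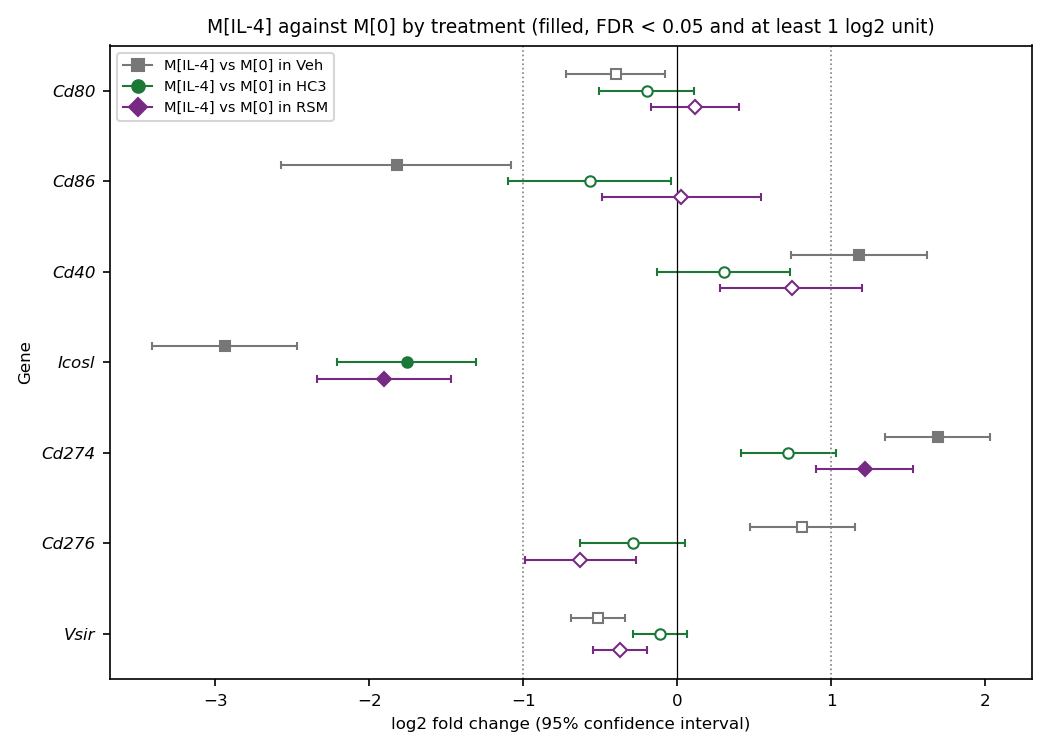
Log2 fold change of M[IL-4] against M[0] for 7 of the 8 genes in Veh (grey squares), HC3 (green circles) and RSM cells (purple diamonds), with 95% confidence intervals, filled where called. *Cd86* falls and *Cd40* rises in Veh cells alone among the calls, *Icosl* falls in all treatments, and *Cd276* lies above 0 in Veh and below 0 under RSM.

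Counted over the 8 genes, the interaction of HC3 with IL-4 was called for 2 and passed the FDR for 4, against 1.24% and 6.48% of all tested genes, and that of RSM for 3 and 3, against 2.14% and 9.19%. These comparisons share the Veh libraries with each other and with the inhibitor comparisons, so the calls are not independent. The HC3 calls were 3 with the block within polarization, where *Cd86* joined *Icosl* and *Cd276*.

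The 2 inhibitors were also compared directly. HC3 and RSM differed in no called gene of the 8 in M[0] by edgeR or DESeq2, where 4 passed the FDR, against 3.04% and 13.6% of all tested genes, and in 1 called gene in M[IL-4], where 3 passed, against 2.80% and 13.0%. The called gene was *Cd80*, 2.43-fold lower with HC3 than with RSM in M[IL-4] (log2 -1.28 ± 0.143, FDR = 4.76e-06), and in M[0] it had -0.96 ± 0.141 (FDR = 0.000104, and -1.07 without replicate 2, which called it). *Cd86* in M[IL-4] was lower with HC3 by 0.99 (-0.99 ± 0.252, FDR = 0.0122), and -1.01 with the block within polarization, which called it, as did leaving out replicate 2 (-1.04). In M[0] its difference was -0.40 (interval -0.92 to 0.12, FDR = 0.331, or 4.17e-06 with the block). *Cd274* and *Cd40* were higher with HC3 than with RSM in M[0] (0.59 ± 0.15, FDR = 0.0114, and 0.78 ± 0.217, FDR = 0.0203), *Vsir* was lower (-0.36 ± 0.083, FDR = 0.0061), and *Cd276* was higher in M[IL-4] (0.70 ± 0.17, FDR = 0.00858). For *Cd274* in M[IL-4] the difference was 0.098 (interval -0.21 to 0.41) and for *Pdcd1lg2* -0.02 (-0.40 to 0.36). *Icosl* had -0.41 in M[0] (interval -0.80 to -0.01, FDR = 0.175) and -0.26 in M[IL-4] (-0.75 to 0.23), and *Cd276* had 0.36 in M[0] (0.02 to 0.70, FDR = 0.165). In M[IL-4], *Cd40* had 0.34 (-0.09 to 0.78) and *Vsir* -0.099 (-0.27 to 0.08).

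Per kilobase of exon the make-up of these transcripts shifted from *Vsir* to *Cd274* and *Cd86*. *Vsir* made up 89.3% ± 1.07 of the summed RPKM (CPM per kilobase of exon) of the 8 genes with Veh, 45.7% ± 4.68 with HC3 and 55.3% ± 1.67 with RSM among M[0] libraries (SD, n = 3). *Cd274* made up 4.55% ± 0.517, 36.5% ± 3.38 and 23% ± 0.818, and *Cd86* 1.85% ± 0.286, 12% ± 1.86 and 15.1% ± 1.24. In M[IL-4] the share of *Vsir* was 71.3% ± 1.65 with Veh and 34.5% with each inhibitor (± 3.37 for HC3 and 2.14 for RSM). *Cd274* went from 16.6% ± 1.75 to 49.3% ± 2.04 and 43.2% ± 0.849, and was the leading gene in both inhibitor M[IL-4] groups. Among all tested genes *Cd274* lay at percentile 65.5 by RPKM in Veh M[0] and 96.6 in HC3 M[IL-4], and *Cd86* at 26.4 in Veh M[IL-4] and 84.5 in RSM M[IL-4]. *Vsir* stayed between percentiles 95.1 and 98.4.

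**Figure D5:**
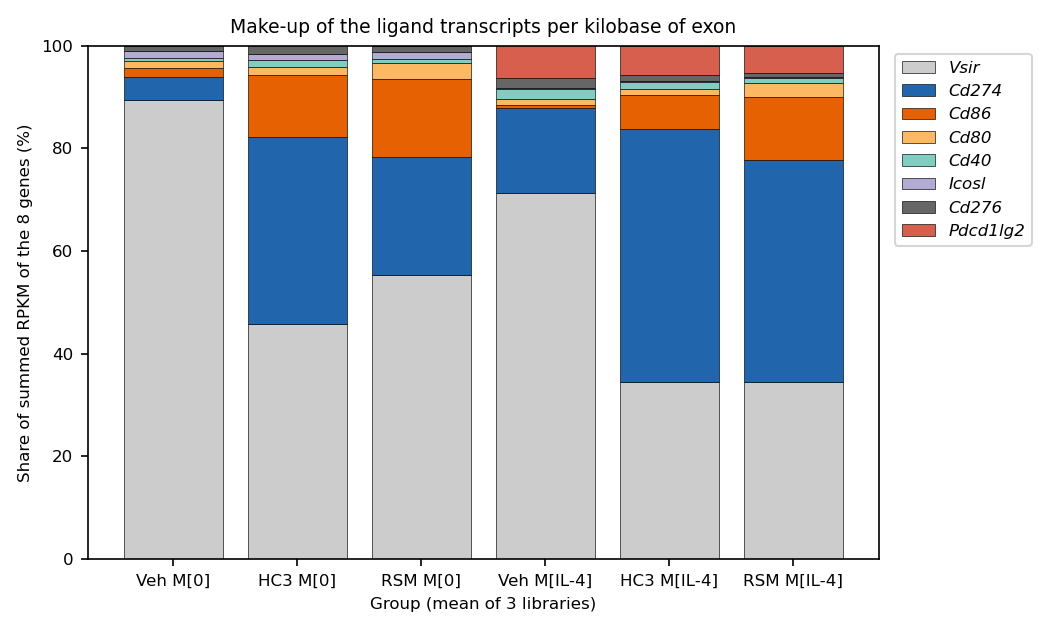
Share of each gene in the summed RPKM of the 8 genes by group (stacked bars, mean of 3 libraries). *Vsir* falls from 89.3% to 45.7% and 55.3% in M[0] and from 71.3% to 34.5% in M[IL-4] with the inhibitors, while *Cd274* reaches 49.3% in HC3 M[IL-4].

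The 8 genes did not move as one across the 18 libraries. Pearson's r of log2 CPM, which here mostly reflects the group structure, was -0.93 between *Cd274* and *Vsir*, -0.94 between *Pdcd1lg2* and *Icosl*, 0.76 between *Cd80* and *Cd86*, 0.60 between *Cd86* and *Cd274*, and 0.49 between *Cd274* and *Pdcd1lg2*. Among 8810 or 8811 genes with a mean of at least 10 CPM, the patterns most like *Cd86* over 18 libraries were *Aoah* (r = 0.978), a lipase that inactivates endotoxin, *Sept8* and *Washc2* (both 0.977). Those most like *Cd274* were *Rpl4* (0.978), *Vwf* (0.973) and *Dtnbp1* (0.972), and those most like *Cd80* were *Pon3* (0.962), *Emilin2* (0.944) and *Nsd1* (0.936). *Pdcd1lg2* was closest to *Chil3* (0.992), a chitinase-like marker of IL-4 polarization, *Slc7a2* (0.991), an arginine transporter, and *Cblb* (0.988). With 0 to 3 counts in each M[0] library, its r, also that with *Icosl*, mainly separates libraries with IL-4 from those without. *Vsir* was closest to *Ptpn6* (0.984), which encodes the phosphatase SHP-1, *Il10ra* (0.983) and *C5ar2* (0.980). *Icosl* was closest to *Ralgps1* (0.942), *Cpd* (0.936) and *Retreg1* (0.932), and *Cd40* to *Rhoc* (0.926), *Idh3a* (0.899) and *Pdgfa* (0.895). *Cd276* had weaker likeness, with *Afdn* at 0.843 and *Enc1* at 0.837.

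On the receptor side, *Cd28*, whose product binds CD80 and CD86, was itself counted 1717 to 7444 times per library. It stood at 199, 206 and 156 CPM in Veh M[0], 196, 243 and 165 in HC3 M[0], 242, 279.6 and 225 in RSM M[0], 111, 133 and 96.1 in Veh M[IL-4], 183, 258 and 205 in HC3 M[IL-4], and 306, 401 and 335 in RSM M[IL-4]. *Ctla4*, *Cd40lg*, *Cd3d* and *Cd3g* had 0 counts in all 18 libraries, *Cd3e* at most 3, *Pdcd1* at most 1 and *Icos* at most 5. The T cell receptor gene *Trac* had at most 13, so that genes defining the T cell lineage were at or near 0 while *Cd28* was abundant. RSM raised *Cd28* in M[IL-4] (log2 1.61 ± 0.16, FDR = 1.68e-07) and HC3 passed the FDR there (0.92 ± 0.159, FDR = 0.000123). IL-4 in Veh cells had -0.72 ± 0.159 (FDR = 0.00179), and the responses to IL-4 under RSM (1.20 ± 0.222, FDR = 0.00163) and HC3 (0.82 ± 0.222, FDR = 0.0341) both differed from it. In M[0] the difference was 0.41 for RSM (FDR = 0.0419) and 0.11 for HC3 (FDR = 0.611). Among M[IL-4] groups the order of the means, with RSM highest and Veh lowest, was that of *Cd86*, and replicate 2 was again the highest library in every group. Of the 13 genes in this list only *Cd28* and *Cd4* passed the count filter, and *Cd4*, at 4.87 CPM in Veh M[0], was lower with HC3 (-1.56, FDR = 0.000103) and RSM (-3.30, FDR = 8.32e-08).

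Of 24 other genes for ligands that T cells or their regulators recognize, 17 were tested. In M[0], HC3 called 5 higher and 4 lower and RSM 5 higher and 3 lower, against 5.93% higher and 6.11% lower of all tested genes for HC3 and 5.05% and 6.51% for RSM. In M[IL-4] each called 4 higher and 2 lower, against 4.72% and 5.53% for HC3 and 5.05% and 6.00% for RSM. The median log2 difference of the 17 genes lay between -0.05 and 0.03 in these 4 comparisons. *Pvr*, encoding the poliovirus receptor that engages DNAM-1 and TIGIT, rose in all 4, with means of 19.7 ± 0.248 CPM for Veh, 42.3 ± 1.44 for HC3 and 46.9 ± 1.99 for RSM among M[0] cells (log2 1.10 and 1.25, FDR = 8.03e-11 and 1.67e-11). Among M[IL-4] cells the log2 rises were 1.21 and 1.41 (FDR = 4.02e-11 and 5.38e-12). *Cd83*, a marker of activated presenting cells, fell with both inhibitors (log2 -2.18 with HC3 and -2.77 with RSM in M[0], then -1.97 and -1.91 in M[IL-4], FDR up to 1.93e-09), opposite to *Cd86*. *Icam1*, the adhesion ligand of LFA-1, fell by 1.33 with HC3 in M[0] (FDR = 3.13e-09) and 1.18 in M[IL-4] (FDR = 3.32e-08). *Ceacam1*, a ligand of TIM-3, rose by 2.32 with RSM in M[0] (FDR = 3.52e-10) and 2.07 in M[IL-4] (FDR = 2.03e-09). IL-4 in Veh cells called none higher and 1 lower, *Cd200* (-1.20 ± 0.231, FDR = 0.000553), against 2.83% and 3.83% of all genes.

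Of 10 cytokine genes that direct T cells, 8 were tested. *Il6*, the inflammatory cytokine interleukin-6, rose in all 4 inhibitor comparisons. Its mean was 0.167 CPM in Veh M[0], 1.18 with HC3 (FDR = 0.000425) and 1.66 with RSM (FDR = 5.79e-05), then 0.0746 CPM in Veh M[IL-4], 5.44 with HC3 (FDR = 4.67e-08) and 2.98 with RSM (FDR = 5.93e-07). *Il10*, an anti-inflammatory cytokine, fell in all 4 (log2 -2.76 and -2.85 for HC3 and RSM within M[0], then -2.61 and -1.92 within M[IL-4], FDR up to 3.6e-05). *Il1b*, encoding interleukin-1beta, fell in M[0], where Veh had 5.28 ± 1.49 CPM, HC3 0.28 ± 0.0316 (FDR = 5.7e-06) and RSM 0.767 ± 0.332 (FDR = 0.000129). The list held 1 called higher in each comparison and 1 or 2 called lower, against 4.72% to 5.93% higher and 5.53% to 6.51% lower of all tested genes, with medians of -0.71 for HC3 and -0.46 for RSM within M[0], then -0.43 and -0.09.

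Of 18 genes downstream of CD40, all tested, none was called higher with an inhibitor and 2, 1, 1 and 1 were called lower in HC3 M[0], RSM M[0], HC3 M[IL-4] and RSM M[IL-4], with medians of -0.41, -0.33, -0.07 and 0.15. Such counts of calls are close to the 6.11%, 6.51%, 5.53% and 6.00% of all tested genes called lower. By the FDR alone, 10 of the 18 were lower and 1 higher with each inhibitor in M[0]. Of all tested genes 44.1% (HC3) and 41.1% (RSM) passed there in either direction. In M[IL-4], 3 were lower and 3 higher with HC3, and 3 lower and 4 higher with RSM, against 38.8% and 38.6%. *Traf5*, an adaptor of CD40, rose with IL-4 in Veh cells from 9.79 ± 1.02 to 33.7 ± 8.03 CPM (log2 1.78 ± 0.149, FDR = 3.09e-08) and was lower in M[IL-4] with HC3 (-1.22 ± 0.145, FDR = 1.81e-06) and RSM (-1.57 ± 0.147, FDR = 7.72e-08). *Cd40* moved in the same directions, but did not pass the FDR with HC3 in M[IL-4] (-0.49, FDR = 0.0616). The RSM interaction was called for *Traf5* (-1.08 ± 0.215, FDR = 0.00307) and did not pass the FDR for *Cd40* (-0.44, FDR = 0.464). In M[0] the called genes were *Bcl2a1b* and *Traf1* with HC3 (-1.16 and -1.05) and *Map3k14*, the kinase of the noncanonical NF-kB pathway, with RSM (-1.01). *Bcl2a1b* belongs to a family of near-identical copies, so its counts are uncertain. It was the other gene of this list that IL-4 called in Veh cells (1.09, FDR = 0.0022).

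Of 20 genes known to regulate PD-L1 or PD-L2, all tested, HC3 called none higher and 2 lower among M[0] cells, then 1 of each among M[IL-4] cells, with medians of -0.36 and -0.15. RSM called 2 higher and 1 lower in both, with medians of -0.17 and 0.08. These counts of calls too are close to the shares of all tested genes, 4.72% to 5.93% higher and 5.53% to 6.51% lower. By the FDR alone, HC3 had 5 higher and 12 lower and RSM 6 higher and 10 lower among M[0] cells. Among M[IL-4] cells HC3 had 4 higher and 9 lower and RSM 9 higher and 6 lower. Of all tested genes 38.6% to 44.1% passed in either direction. *Ifngr1*, a subunit of the interferon gamma receptor, fell with HC3 in M[0] (-1.15 ± 0.0741, FDR = 3.83e-10). *Hif1a*, encoding the oxygen-regulated factor HIF-1alpha, rose with RSM in M[0] (1.11 ± 0.0757, FDR = 9.5e-10), and *Il4ra*, a subunit of the IL-4 receptor, was higher with RSM than with Veh among M[IL-4] cells (1.18 ± 0.0679, FDR = 1.35e-10). *Socs3*, an inhibitor of STAT3 signalling, rose in M[IL-4] with HC3 (1.12 ± 0.264, FDR = 0.00217) and RSM (2.04 ± 0.257, FDR = 3.48e-06). *Irf4*, a transcription factor of IL-4 polarization, rose with IL-4 in Veh cells from 4.18 ± 0.571 to 71.6 ± 10.5 CPM (4.10 ± 0.183, FDR = 7.36e-12) and was lower in M[IL-4] with HC3 at 14.8 ± 2.42 (-2.28 ± 0.161, FDR = 2.16e-09) and RSM at 13.1 ± 2.7 CPM (-2.45 ± 0.162, FDR = 7.84e-10). *Irf4* also fell in M[0] with HC3 (-1.79) and RSM (-1.36), and *Socs3* was called there with RSM (1.09). In the same M[IL-4] libraries *Pdcd1lg2* had the overlapping levels given above. *Socs1* and *Myc* were the other genes of this list that IL-4 called in Veh cells (3.94 and 1.52).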

How the data were processed

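RNA of 18 BMDM libraries was sequenced after poly-T selection. After fastp trimming and STAR alignment to GRCm38, the authors kept pairs of high mapping quality, marked duplicates without removing them, and deposited unnormalized featureCounts (Subread) counts, 1 row for each Ensembl gene. Versions, annotation and strand setting are not given in the sources used here. Exons and symbols came from the GENCODE M21 annotation of GRCm38 (55144 of 55385 genes matched).

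The 14979 genes that reached 10 counts in 2 or more libraries were fitted by the quasi-likelihood functions of edgeR 4.0.16 (glmQLFit and glmQLFTest after TMM scaling, R 4.3.3), with 1 coefficient per group and no block. Adjusted p-values are Benjamini-Hochberg FDR over all tested genes. A call needed an FDR under 0.05 together with an absolute log2 fold change of 1 or more. On simulated 4-fold changes (HC3 against Veh in M[0], 14979 genes), 200 of 200 were recovered with 4 false calls. The simulation used 1 fixed spread for all genes, no replicate effect, and changes in well-counted genes only. It checked that the procedure runs correctly and does not measure recovery at the spread or depth of the members. Levels are TMM-scaled CPM, and RPKM divides them by exon length. Likeness used log2 CPM with a prior count of 2. Transcripts of the members were compared with all others by blastn 2.17.0 (at least 98% identity over 100 bases). The matches found were *AC119228.1* for *Cd274* and *Gm10657* for *Cd276*, with none for the other members.

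Residuals of libraries with the same replicate number and polarization correlated at 0.11 to 0.372 in 18 of 18 pairs, and across polarizations 12 of 27 were over 0.1. Across polarizations the pairs of number 2 had 0.239 to 0.3, those of number 1 -0.0311 to 0.104 and those of number 3 -0.00613 to 0.115. Number 3 in M[0] and number 1 in M[IL-4] had 0.0861 to 0.198, so numbers 1 and 3 may not match across polarizations. The replicate block assumes that they do. Numbers were therefore taken to pair libraries within a polarization, and the blocked value is printed where it changes a call. Alternatives were a replicate block, a block within polarization, only the compared groups, DESeq2 1.42.0, other scalings and filters, mitochondrial genes left out, and each replicate number left out.

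The members, gene lists, comparisons and alternatives were chosen with earlier results of these data known. All 8 members were eligible in every comparison. Of each list, up to 3 called genes with the lowest FDR were eligible to be named, for each member the 3 genes with the highest r, and for *Cd274* and *Pdcd1lg2* the 2 nearest tested genes on each side. Some genes that these rules name are not reported here. *Cd28* in full, marker genes at or near 0, and motifs were chosen after values were seen.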

Additional observations from a re-analysis of the deposited data

Results flagged for a closer look

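The results listed here are those where the response to IL-4 differed between inhibitor and Veh cells by the interaction test (edgeR quasi-likelihood, Benjamini-Hochberg FDR under 0.05 over all tested genes). Values are the log2 difference of the 2 responses, inhibitor minus Veh. For HC3 they were -0.97 for *Cd274*, -1.10 for *Cd276*, 1.18 for *Icosl* and 0.40 for *Vsir*. For RSM they were -1.44 for *Cd276*, 1.84 for *Cd86* and 1.03 for *Icosl*. For *Cd276* the 3 Veh libraries moved up with IL-4 and the 3 RSM libraries moved down, without overlap in either. For *Cd274* and *Icosl* the groups moved the same way and differed in size. For *Cd86* the Veh libraries moved down and the RSM groups overlapped. Groups of 3 libraries were too small for a test of single libraries that stand apart.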

How the results depend on the processing

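Under 12 alternatives (11 for IL-4 against M[0], where the block within polarization cannot be fitted), 1003 of the log2 fold changes recomputed kept their direction and their side of the threshold, 10 changed sign, 10 became calls and 9 ceased to be calls. The number of called genes stayed at 3 of 8 for HC3 in M[0], 2 for HC3 and 4 for RSM in M[IL-4], and 5, 2 and 3 for IL-4 in Veh, HC3 and RSM cells under every alternative run. It ranged from 3 to 4 for RSM in M[0]. The fourth gene was *Vsir* without replicate 1, and *Pdcd1lg2* with the block within polarization, on 4 against 0 counts. Leaving out 1 replicate number gave 0 to 2 called genes for the HC3 interaction (0 without replicate 1 or 3), 1 to 2 for the RSM interaction (1 without replicate 3), 0 to 1 for HC3 against RSM in M[0] and 1 to 2 in M[IL-4]. The replicate block and the block within polarization each gave 2 in the last comparison and 3 for the HC3 interaction, adding *Cd86* in both, as did no count filter (3) in the HC3 interaction. Over all tested genes, 970 passed the FDR in the HC3 interaction, and 535, 603 and 73 without replicates 1, 2 and 3. In the RSM interaction 1377 passed, and then 889, 975 and 268. The block within polarization also took *Cd80* (FDR = 0.0261) and *Cd274* (FDR = 0.00014) past the FDR in the RSM interaction, 5 genes in all, and *Cd86* for HC3 against RSM in M[0] (FDR = 4.17e-06). Some differences that passed the FDR below the fold threshold did not pass with 1 replicate number left out. Their highest FDR was 0.103 for *Cd274*, IL-4 in HC3 cells, 0.168 for *Cd40*, 0.14 for *Cd276* and 0.156 for *Vsir*, IL-4 in RSM cells, 0.0792 for *Icosl* with HC3 in M[0] and 0.109 with RSM in M[IL-4], and, for HC3 against RSM, 0.107 (*Cd274*), 0.293 (*Cd40*) and 0.146 (*Vsir*) in M[0] and 0.13 (*Cd276*) and 0.227 (*Cd86*) in M[IL-4]. The causes were not tested.

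Values near 0 changed sign. *Cd86* for IL-4 in RSM cells was -0.0106 with the replicate block, -0.0435 with scaling by library size only, and -0.115 to 0.11 with a replicate left out. *Pdcd1lg2* for RSM in M[IL-4] was 0.0136 by library size only and -0.0927 to 0.0234 with a replicate left out. With a replicate left out, *Pdcd1lg2* for HC3 in M[IL-4] was -0.117 to 0.0317, *Cd276* for RSM in M[0] -0.137 to 0.143, *Cd80* for IL-4 in RSM cells -0.00315 to 0.315, and for HC3 against RSM in M[IL-4] *Icosl* was -0.665 to 0.0288 and *Pdcd1lg2* -0.0379 to 0.00824. None of these passed the FDR. Scaling by library size only moved the median of all genes by less than 0.1 in every comparison. Depth limits *Pdcd1lg2* in M[0], *Icosl* in M[IL-4], and *Il6* and *Il1b*, which rest on few counts.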
